A study of Mus musculus with 18 samples.

Results

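The 10 genes described here encode the subunits of the transcription factor NF-kappaB (Nfkb1, Nfkb2, Rel, Rela and Relb) and proteins that hold it back or adjust it (Nfkbia, Nfkbib, Nfkbie, Nfkbiz and Tnfaip3). They were taken by symbol from a table of 16314 genes, all 10 were found, and all 10 were among the 12021 genes with enough reads to be tested. The RNA came from bone marrow-derived macrophages (BMDMs), which are macrophages grown from mouse bone marrow, here for 7 days with 50 ng/ml M-CSF. They were left unstimulated (M0), or stimulated for 24 h with 50 ng/ml LPS, a bacterial cell wall component (M1), or with the cytokines IL-4 and IL-13, each at 20 ng/ml (M2). The donors had a C57BL6/J background and either lacked Prep (Prep-/-), which encodes the peptidase prolyl endopeptidase, or were heterozygous littermates (Prep+/-), so the controls also carried 1 disrupted allele and no wild-type group was included. Each of the 6 groups held 3 replicates, 18 libraries in all. The age of the marrow donors and the nature of the disrupted allele were not given in the sources used here. The replicates are described as biological ones, but whether each came from a separate animal was not given, and p-values measure the spread between these samples.

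NF-kappaB works as dimers of 5 related proteins. In resting cells, dimers of RelA or c-Rel with p50, the product of Nfkb1, are kept in the cytoplasm by the inhibitors IkappaBalpha, IkappaBbeta and IkappaBepsilon (Nfkbia, Nfkbib, Nfkbie). When TLR4 senses LPS, the IKK complex marks these inhibitors for destruction, the dimers enter the nucleus, and among the genes they switch on are their own inhibitors and several of their own subunits. A slower, non-canonical arm processes the Nfkb2 product to p52, which pairs with RelB. IkappaBzeta, the product of Nfkbiz, is a nuclear family member that acts as a co-activator for a set of delayed LPS genes, and A20, the product of Tnfaip3, edits ubiquitin chains and dampens the signal upstream.

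Prep itself was at 551 to 900.0 normalized counts in the 9 Prep+/- libraries and at 31.3 to 68.1 in the 9 Prep-/- libraries, where a normalized count is the read count scaled to the mean library size. The libraries held 19068237 to 22598279 counts. All 8 macrophage markers examined were detected, with a summed level of 10382 to 48083 depth-scaled counts (CPM), lowest in M2 within each genotype. Most of this sum was Lyz2, and Cd68 was instead highest in M2 within each genotype (1219 to 1396 CPM in Prep+/- and 1569 to 1659 CPM in Prep-/-). The spread within groups was largest in Prep-/- M0 for Nfkb1, Nfkb2, Rela, Relb, Nfkbiz and Tnfaip3, with a coefficient of variation of 12.6% to 56.1%. Prep-/- M0 replicate 1 had the highest value of its group for Nfkb2, Rel, Rela, Relb, Nfkbia, Nfkbie, Nfkbiz and Tnfaip3. Over the genes tested, however, replicate 3 lay furthest from the others in Prep-/- M0 and in Prep-/- M2. The chi-squared per degree of freedom between 2 libraries measures how far they differ. In Prep-/- M0 it was 110 and 117 for the pairs with replicate 3, against 34.4 between replicates 1 and 2. In Prep-/- M2 it was 108 for each pair with replicate 3, against 11.7.

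The sequence upstream of each gene was searched for the 10-letter kappaB consensus, the motif that NF-kappaB dimers bind, which begins with GGG and ends with CC, on both strands. The window was the 300 bases before the start of the canonical transcript in the GENCODE vM39 annotation of GRCm39. The consensus was found in 5 of the 10 members, compared with 842 of 15389 protein-coding genes of the table (5.47%). The windows of those 5 genes are shown 5′ to 3′ on the strand of the gene, ending at the base before the start, with the matches in capitals. They are shown because Nfkbia, Relb, Nfkbie and Tnfaip3 were among the genes that rose with LPS in Prep+/- and Rel was not.
Nfkbia: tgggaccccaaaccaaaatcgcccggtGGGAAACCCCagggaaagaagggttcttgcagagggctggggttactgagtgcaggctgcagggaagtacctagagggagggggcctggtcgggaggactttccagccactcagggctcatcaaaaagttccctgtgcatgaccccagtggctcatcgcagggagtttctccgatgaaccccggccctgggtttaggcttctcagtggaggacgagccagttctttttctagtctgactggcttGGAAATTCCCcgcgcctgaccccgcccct
Relb: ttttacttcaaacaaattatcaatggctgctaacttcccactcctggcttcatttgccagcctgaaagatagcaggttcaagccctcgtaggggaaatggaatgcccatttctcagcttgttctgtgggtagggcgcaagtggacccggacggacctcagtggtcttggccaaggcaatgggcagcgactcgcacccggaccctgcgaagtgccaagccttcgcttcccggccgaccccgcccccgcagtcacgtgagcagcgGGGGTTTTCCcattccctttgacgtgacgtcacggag
Nfkbie: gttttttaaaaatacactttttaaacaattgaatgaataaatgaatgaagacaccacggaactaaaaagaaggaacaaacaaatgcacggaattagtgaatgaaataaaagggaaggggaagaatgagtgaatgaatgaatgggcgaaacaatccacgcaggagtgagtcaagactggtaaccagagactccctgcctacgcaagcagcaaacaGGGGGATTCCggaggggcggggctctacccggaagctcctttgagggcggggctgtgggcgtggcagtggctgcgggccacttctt
Tnfaip3: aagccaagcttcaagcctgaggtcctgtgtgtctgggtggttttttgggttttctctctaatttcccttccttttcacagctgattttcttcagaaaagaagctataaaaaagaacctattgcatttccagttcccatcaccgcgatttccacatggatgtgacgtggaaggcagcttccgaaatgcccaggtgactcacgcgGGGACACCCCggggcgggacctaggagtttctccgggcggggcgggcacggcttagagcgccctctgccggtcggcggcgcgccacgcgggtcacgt
Rel: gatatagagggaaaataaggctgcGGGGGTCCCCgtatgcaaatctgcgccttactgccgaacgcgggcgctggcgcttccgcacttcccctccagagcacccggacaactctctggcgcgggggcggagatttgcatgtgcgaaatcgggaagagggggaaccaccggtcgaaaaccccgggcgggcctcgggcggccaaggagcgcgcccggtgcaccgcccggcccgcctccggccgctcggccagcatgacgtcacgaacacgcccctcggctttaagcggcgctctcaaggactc
These windows lie at chr12:55539433-55539732 (Nfkbia), chr7:19363424-19363723 (Relb), chr17:45866306-45866605 (Nfkbie), chr10:18891187-18891486 (Tnfaip3) and chr11:23721265-23721564 (Rel), with Nfkbie on the plus strand and the others on the minus strand. Nfkbia held 2 matches, 273 to 264 and 29 to 20 bases before the start, and the first of them reads as a match on both strands. The match in Relb was 37 to 28 bases, that in Nfkbie 86 to 77 bases, that in Tnfaip3 97 to 88 bases and that in Rel 276 to 267 bases before the start. No match was found in the same window of Nfkb1, Nfkb2, Rela, Nfkbib or Nfkbiz. The annotated starts used for Nfkbiz, Nfkbib and Tnfaip3 lie within the gene, downstream of another start. Those of Relb, Rela and Nfkbie do so by a few bases only. Of the genes without a match, Nfkb2, Nfkbib and Nfkbiz rose with LPS in Prep+/- too, and Nfkb1 and Rela were not called. Whether a match bears on the LPS response was not tested. Among the genes tested the share with a match was 5.23%. A match is a run of letters and was not tested as a binding site. The genes without a match that differed between the genotypes lie at chr19:46292759-46303812, plus strand (Nfkb2) and chr16:55631738-55659262, minus strand (Nfkbiz). Nfkb2 is overlapped on the other strand by Psd, which was at no more than 8.79 normalized counts in any library. Stretches of the Tnfaip3 transcript match those of other genes, among them Gripap1 (92.0% over 663 bases) and Rps6 (91.5% over 351 bases), so some of its reads may be shared.

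**Figure D1:**
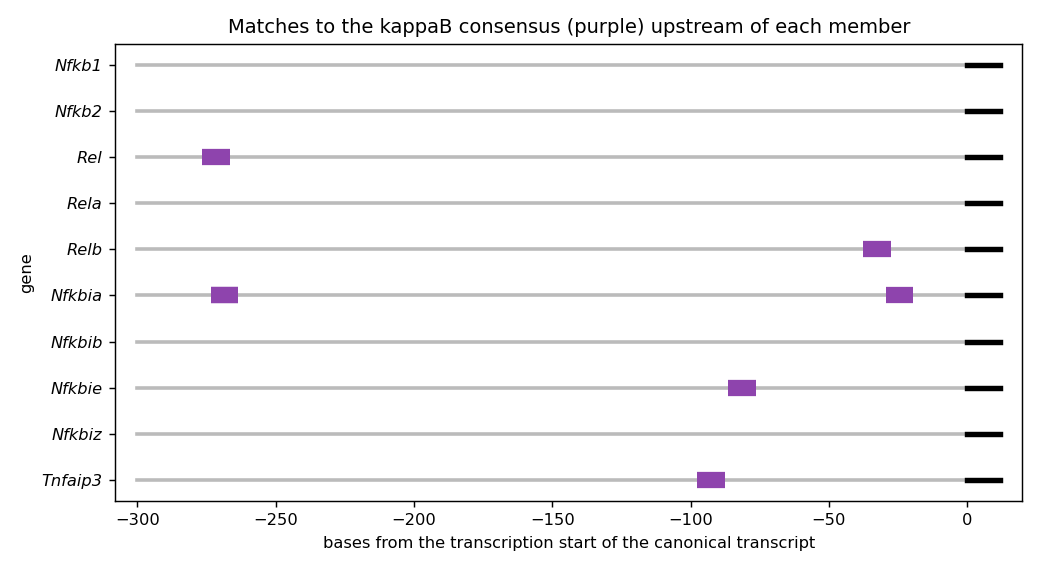
Each grey line is the 300 bases before the transcription start of 1 gene, with the start at 0 on the x axis (bases) and the gene on the y axis, and purple blocks are matches to the kappaB consensus. Matches lie in 5 of the 10 windows, starting 37 bases away in Relb and 29 bases away at the nearer match of Nfkbia, and 276 and 273 bases away in Rel and at the other match of Nfkbia.

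In M0 the members differed widely in abundance. Scaled per kilobase of annotated exon, Nfkbia (33.5 CPM per kb) and Rela (29.2 CPM per kb) had the highest mean levels in Prep+/- M0, Nfkbib was at 12.1, and Nfkbiz (1.57) and Tnfaip3 (1.502) had the lowest. In Prep+/- M1 the level of Nfkbia per kilobase reached 235 CPM per kb, and that of Rela, 33.1, was the next. With the longest transcript as the length in place of all exons, Nfkb1 was at 17.8 in place of 6.65 CPM per kb in Prep+/- M0 and above Nfkbib, so its place rests on the choice of length.

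**Figure D2:**
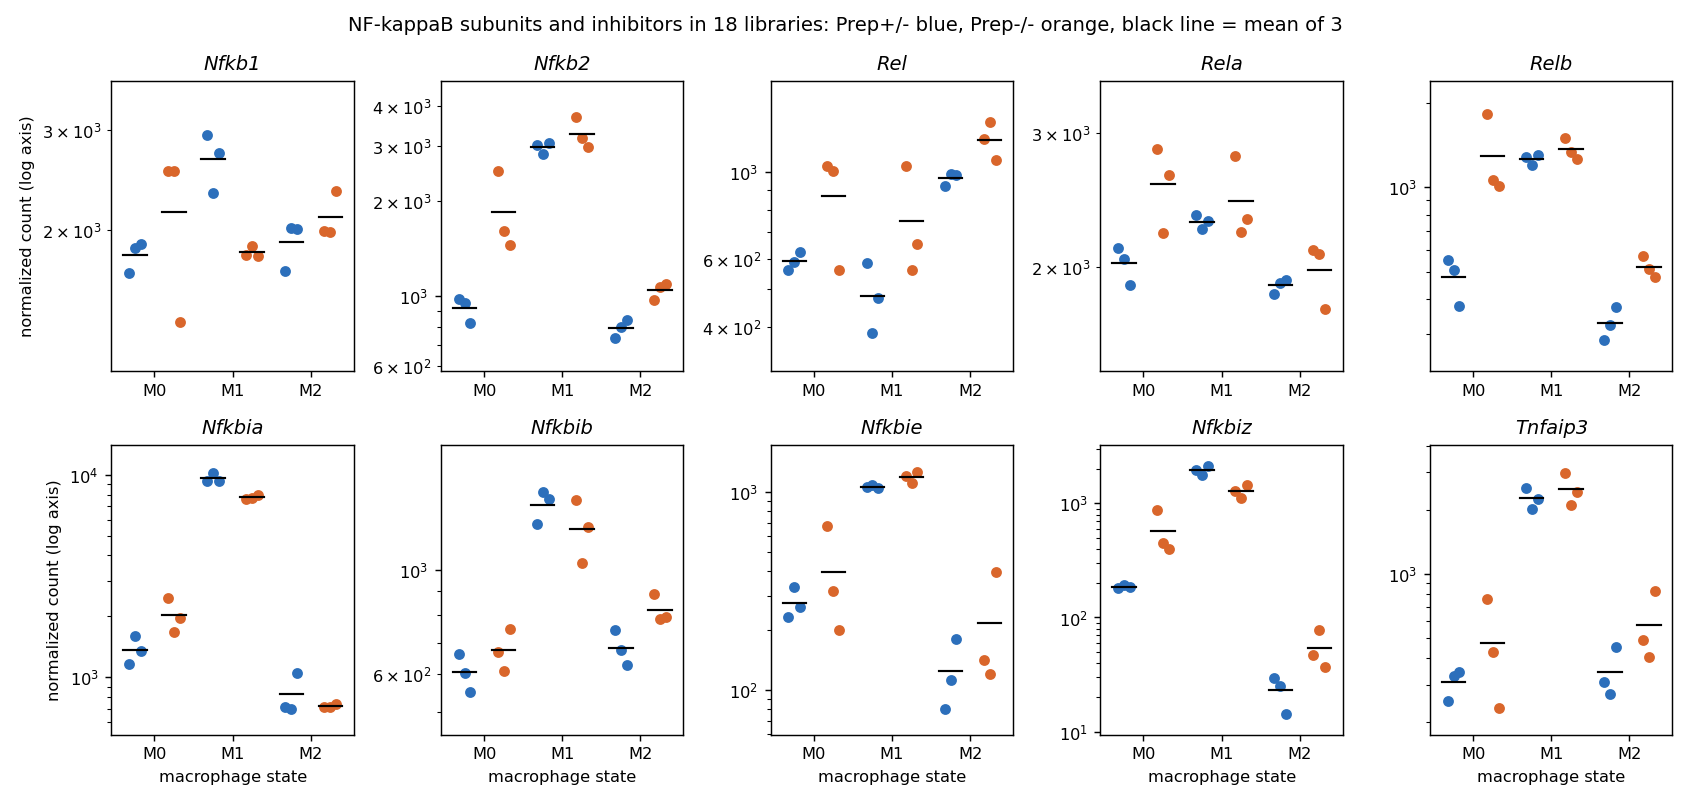
Normalized counts on log axes for the 10 members, 1 panel per gene, with the macrophage state on the x axis, 1 point per library (Prep+/- blue, Prep-/- orange) and a black line at the mean of 3. In the 7 members called with LPS in Prep+/- the M1 points of that genotype lie above the M0 points, the M2 points of Nfkbiz are the lowest of all, and in Relb, Nfkb2 and Nfkbiz the orange M0 points lie above the blue ones.

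In Prep+/- BMDMs, LPS raised both non-canonical subunits and all 5 inhibitors and regulators, and the canonical subunits Nfkb1, Rela and Rel were not called. A gene was called changed when the adjusted p was under 0.05 in edgeR's quasi-likelihood test with Benjamini-Hochberg adjustment and the fold change was over 1.5. Of the 10 members, 7 were called higher and 0 lower, while 16.7% of all genes tested were called higher and 37.7% were called in either direction. The median log2 fold change of the members was 1.55, beside -0.033 over all genes tested.

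Nfkbia, the inhibitor that NF-kappaB induces to end its own signal, gave 1168, 1594 and 1356 normalized counts in the 3 Prep+/- M0 libraries and 9347, 10276 and 9286 in the 3 M1 libraries. Every M1 library lay above every M0 library, and edgeR put the change at a 7.02-fold increase (log2 fold change 2.81, SE 0.17, adjusted p = 1.49e-09). For Nfkbiz the M0 libraries held 182, 191 and 186 and the M1 libraries 1984, 1787 and 2125 normalized counts. This was the largest change of the 10 members (10.5-fold, log2 fold change 3.40, SE 0.28, adjusted p = 4.22e-08 in edgeR), again without overlap. Tnfaip3 rose from 251, 331 and 344 to 2527, 2025 and 2247 (log2 fold change 2.87, SE 0.35, adjusted p = 3.05e-06). In bulk RNA a change in the share of cells expressing a gene and a change per cell cannot be told apart, here and in all comparisons that follow.

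The other inhibitors moved in the same direction. Nfkbie rose from 234, 332 and 262 to 1064, 1080.2 and 1044 normalized counts (log2 fold change 1.94, SE 0.42, adjusted p = 9.07e-04), and its M1 libraries lay within 1044 to 1080.2. Nfkbib, which encodes IkappaBbeta, went from 662, 605 and 551 to 1251, 1461 and 1411 (log2 fold change 1.18, SE 0.12, adjusted p = 6.31e-07), the smallest of the 7 changes. Nfkbib is overlapped on the other strand by Sirt2, which was at 1640 to 3804 normalized counts, and the strand setting of the counting was not given, so reads of both genes may be mixed in it. Sirt2 itself was not called with LPS in Prep+/- (log2 fold change 0.16, adjusted p = 0.482 in edgeR).

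Of the subunits, Nfkb2, the precursor of p52, gave 980.1, 948 and 819 normalized counts in M0 and 3015, 2816 and 3059 in M1 (log2 fold change 1.69, SE 0.16, adjusted p = 1.99e-07). Relb gave 549.9, 508 and 378 in M0 and 1283, 1199 and 1308 in M1 (log2 fold change 1.40, SE 0.19, adjusted p = 1.22e-05). Neither gene overlapped between the states. Nfkb1 passed the adjusted p with a fold change of 1.47, under the limit (52.1% of all genes passed the adjusted p, M0 1680.4 to 1886 and M1 2325 to 2935 normalized counts, adjusted p = 0.0129 in edgeR). It was called without Prep+/- M0 replicate 3 (log2 fold change 0.60, adjusted p = 0.0222) or without Prep+/- M1 replicate 2 (0.61, adjusted p = 0.0131). Rela had a 95% interval of -0.052 to 0.41 on the log2 scale (adjusted p = 0.180), and Rel one of -0.78 to 0.19 (adjusted p = 0.301).

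In Prep-/- BMDMs the same inhibitors and Nfkb2 rose with LPS, but Relb did not. 6 of the 10 members were called higher and 0 lower, beside 20.9% of all genes called higher and 42.0% called in either direction. The median log2 fold change of the members was 0.84. Nfkbia rose from 2468, 1684 and 1971 to 7618, 7706 and 7954 normalized counts (log2 fold change 1.93, SE 0.16, adjusted p = 5.83e-08), Tnfaip3 from 759, 429 and 233 to 2968, 2112 and 2429 (log2 fold change 2.40, SE 0.34, adjusted p = 1.57e-05) and Nfkbie from 672, 316 and 200.2 to 1207, 1107 and 1258 (log2 fold change 1.59, SE 0.41, adjusted p = 0.00339). The M1 libraries of these 3 inhibitors all lay above the M0 libraries.

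The increase of Nfkbiz in Prep-/- was 2.22-fold, from 874, 446 and 400.4 to 1280.4, 1108 and 1438 normalized counts (log2 fold change 1.15, SE 0.25, adjusted p = 0.00102 in edgeR). Nfkb2 went from 2499, 1613 and 1450.2 to 3694, 3167 and 2968 (log2 fold change 0.82, SE 0.16, adjusted p = 2.83e-04), and Nfkbib from 668, 609 and 748 to 1404, 1032 and 1229 (log2 fold change 0.86, SE 0.12, adjusted p = 1.94e-05). Relb was at 1821, 1064 and 1015 in M0 and at 1495, 1336 and 1267 in M1. The libraries of the 2 states overlapped, and the change was 0.072 on the log2 scale with a 95% interval of -0.32 to 0.47 (adjusted p = 0.760 in edgeR). Nfkb1, Rel and Rela were not called either, with log2 fold changes of -0.24, -0.21 and -0.073.

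**Figure D3:**
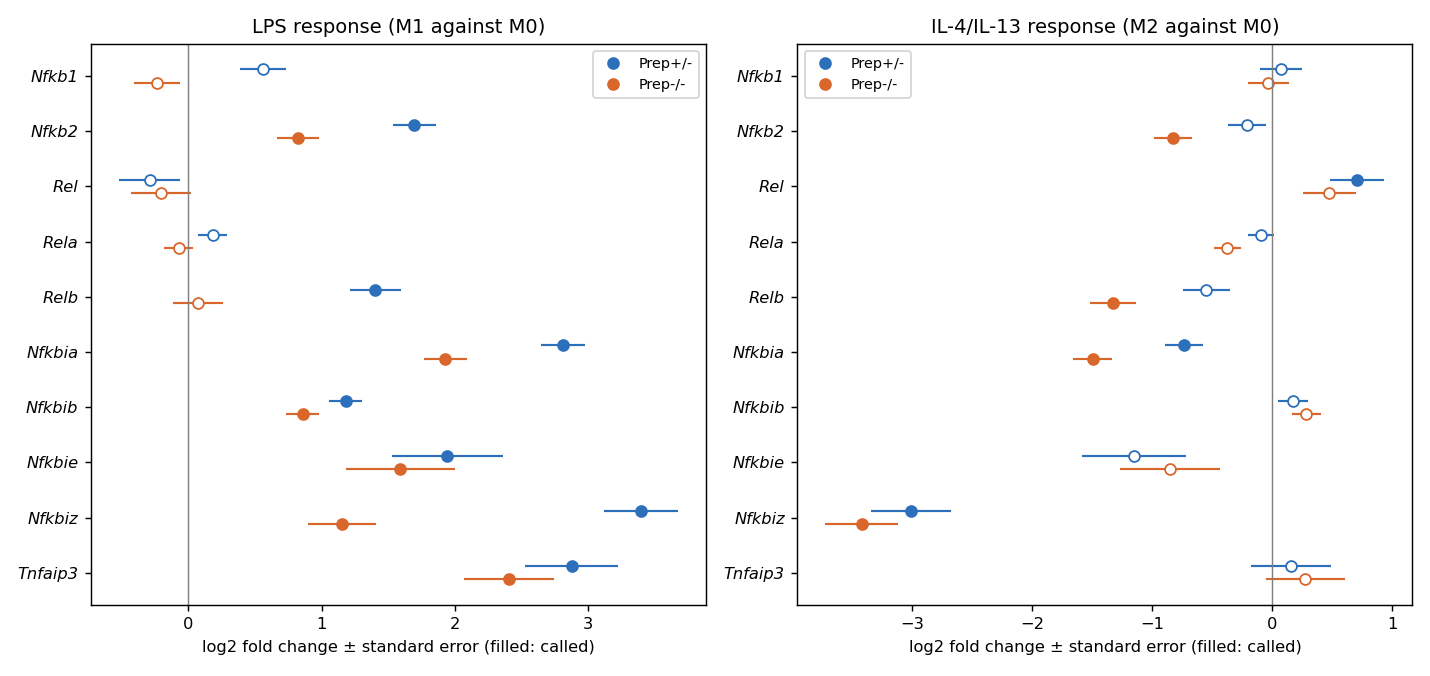
Log2 fold change with its standard error (x axis) of each member (y axis) for the LPS response, left, and the IL-4/IL-13 response, right, in Prep+/- (blue) and Prep-/- (orange), with filled points where the gene was called. In the left panel the orange points of Nfkbiz, Relb, Nfkb2 and Nfkbia lie to the left of the blue ones, and in the right panel Nfkbiz lies near -3 in both genotypes.

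The difference of the LPS response between the genotypes was tested as an interaction. The change in Prep-/- minus that in Prep+/- was called lower for Nfkbiz, Relb, Nfkbia, Nfkb2 and Nfkb1, and higher for no member. Nfkb1 was called with LPS in neither genotype (log2 fold change 0.56 in Prep+/- and -0.24 in Prep-/-). These are 5 of the 10 members lower, beside 9.15% of all genes called lower and 21.1% called in either direction, with a median of -0.63 for the members and 0.042 for all genes. Nfkbiz differed most (difference of log2 fold changes -2.24, SE 0.36, adjusted p = 4.86e-04 in edgeR), followed by Relb (-1.33, SE 0.27, adjusted p = 0.00224). Nfkbia (-0.88, SE 0.22, adjusted p = 0.00913) and Nfkb2 (-0.87, SE 0.22, adjusted p = 0.00945) came next. The difference for Nfkb1 (-0.79, SE 0.25, adjusted p = 0.0268) was no longer called without Prep-/- M0 replicate 1 (-0.66, adjusted p = 0.0705) or without Prep+/- M0 replicate 2 (-0.80, adjusted p = 0.0505).

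The levels behind these differences were not alike. For Relb the genotypes stood apart in M0 (378 to 549.9 normalized counts in Prep+/- and 1015 to 1821 in Prep-/-) and overlapped in M1 (1199 to 1308 and 1267 to 1495). Nfkb2 showed the same order, with 819 to 980.1 and 1450.2 to 2499 in M0, and 2816 to 3059 and 2968 to 3694 in M1. Nfkbiz was higher in Prep-/- M0 and lower in Prep-/- M1, and its genotypes overlapped in neither state. Nfkbia was likewise higher in M0 and lower in M1 in Prep-/-, without overlap. For Nfkb1 the M0 libraries overlapped (1680.4 to 1886 and 1377 to 2541) and the M1 libraries did not (2325 to 2935 and 1799 to 1872). The same M0 libraries enter the LPS response and the genotype difference in M0, so the 2 are not separate measurements. Without Prep-/- M0 replicate 1 the differences for Nfkbiz, Relb, Nfkbia and Nfkb2 were -1.81, -1.01, -0.73 and -0.60, and all 4 were still called.

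In unstimulated macrophages, the non-canonical subunits Nfkb2 and Relb and the co-activator Nfkbiz were higher in Prep-/- than in Prep+/-. No member was called lower. The 3 called higher compare with 15.4% of all genes called higher and 32.6% called in either direction, and the median log2 difference was 0.56 for the members and 0.019 for all genes. Relb gave 549.9, 508 and 378 normalized counts in Prep+/- and 1821, 1064 and 1015 in Prep-/- (log2 fold change 1.44, SE 0.19, adjusted p = 2.14e-05 in edgeR). Its lowest Prep-/- library was above its highest Prep+/- library. Nfkb2 gave 980.1, 948 and 819 in Prep+/- and 2499, 1613 and 1450.2 in Prep-/- (log2 fold change 1.02, SE 0.16, adjusted p = 7.82e-05), and Nfkbiz gave 182, 191 and 186 and 874, 446 and 400.4 (log2 fold change 1.62, SE 0.27, adjusted p = 1.30e-04). Neither overlapped between the genotypes, and in each of the 3 genes the first Prep-/- replicate was the highest. Without that library the log2 differences were 0.74 for Nfkb2, 1.12 for Relb and 1.18 for Nfkbiz, and all 3 were still called.

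The canonical subunit Rela (log2 difference 0.35, SE 0.11, adjusted p = 0.0158) and the inhibitor Nfkbia (0.57, SE 0.16, adjusted p = 0.00693) passed the adjusted p in edgeR with fold changes of 1.27 and 1.49, under the limit, and overlapped between the genotypes in neither case. Nfkbia passed the limit without Prep+/- M0 replicate 2 (0.67) or Prep-/- M0 replicate 2 (0.69), and without Prep-/- M0 replicate 1 Rela did not pass the adjusted p (0.27, adjusted p = 0.0833). The adjusted p alone was passed by 48.5% of all genes. Rel had a difference of 0.55 with adjusted p = 0.0528, and 2 of its Prep-/- libraries (1037, 1003 and 561) lay above all 3 Prep+/- libraries (559, 587 and 624). Tnfaip3 and Nfkbie were spread widely in Prep-/- M0, at 759, 429 and 233 and 672, 316 and 200.2 normalized counts, and both overlapped with Prep+/- M0. Their log2 differences of 0.62 and 0.52 became 0.10 and -0.095 without Prep-/- M0 replicate 1, and 0.93 and 0.82 without Prep-/- M0 replicate 3, where Tnfaip3 was called (adjusted p = 0.0140) and Nfkbie was not. Without the same library Rel was called as well (0.78, adjusted p = 0.00441), and without replicate 1 its difference was 0.41. Nfkb1 and Nfkbib were not called, with 95% intervals of -0.12 to 0.62 and -0.10 to 0.42.

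Some markers of other cells also differed between the genotypes in M0. The summed level of 7 granulocyte precursor markers was 17.2 to 22.3 CPM in Prep+/- M0 and 36.0 to 83.8 CPM in Prep-/- M0, mostly Ltf, Camp and Ngp. Elane, Mpo, Prtn3 and Ctsg overlapped between the genotypes, with Elane and Mpo at or below 1.09 CPM. The 5 dendritic cell markers summed to 0.160 to 0.410 CPM in Prep+/- M0, where 2 of them were at 0 in every library, and to 0.877 to 1.17 CPM in Prep-/- M0. Flt3 and Siglech did not overlap, and Zbtb46, Xcr1 and Ccr7 did. Of 5 B cell markers 3 were in the table, with sums of 3.01 to 4.79 and 8.66 to 11.5 CPM, nearly all Cd79b. In Prep-/- M0 Cd79a and Ms4a1 were at 0 in all 3 libraries. The 8 macrophage markers summed to 19047 to 22511 CPM in Prep+/- M0 and 30440 to 48083 CPM in Prep-/- M0. Most of this sum was Lyz2 (14850 to 18710 and 25299 to 39295 CPM). The other macrophage markers were also higher in Prep-/- M0 without overlap, except Cd68 and Itgam, which overlapped. The T cell, stromal and erythroid sums overlapped between the genotypes. Their part in the difference was not tested.

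After LPS, 1 member differed between the genotypes by the call used. Rel, which encodes c-Rel, was called higher in Prep-/- M1 (586, 387 and 475 normalized counts in Prep+/- and 1035, 560.3 and 655 in Prep-/-, log2 fold change 0.64, SE 0.23, adjusted p = 0.0399 in edgeR), with overlapping libraries. It was 1 of the 10 members, beside 12.3% of all genes called higher and 22.5% called in either direction. The call was lost in 6 of 24 alternatives, each of which left out 1 library. Without Prep-/- M1 replicate 1 the log2 difference was 0.32 (adjusted p = 0.282), and without Prep+/- M1 replicate 2 it was 0.49 (adjusted p = 0.162). It was 0.62 without Prep+/- M1 replicate 3 (adjusted p = 0.0968), Prep+/- M0 replicate 2 (0.0534), Prep+/- M0 replicate 3 (0.0506) or Prep+/- M2 replicate 2 (0.0525). Nfkb1 was lower in Prep-/- M1, at 2935, 2325 and 2729 in Prep+/- and 1807, 1872 and 1799 in Prep-/-. The groups did not overlap, and the change passed the adjusted p but not the fold limit (1.46-fold, adjusted p = 0.0231), and 36.4% of all genes passed the adjusted p. It was called without Prep+/- M1 replicate 2 (-0.64, adjusted p = 0.0224).

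Nfkbiz and Nfkbia had lower values in every Prep-/- M1 library without passing the test. Nfkbiz was at 1984, 1787 and 2125 in Prep+/- M1 and 1280.4, 1108 and 1438 in Prep-/- M1 (log2 fold change -0.62, SE 0.25, adjusted p = 0.0603), and DESeq2 gave it a log2 difference of -0.65 with adjusted p = 0.0415. It was called in 10 of 24 alternatives. Nfkbia was at 9347, 10276 and 9286 and 7618, 7706 and 7954, a log2 difference of -0.31 with a 95% interval of -0.64 to 0.017 (adjusted p = 0.126 in edgeR). Nfkbie was slightly higher in every Prep-/- library, by 0.16 on the log2 scale (adjusted p = 0.770). The intervals were -0.18 to 0.47 for Nfkb2, -0.28 to 0.51 for Relb, -0.14 to 0.32 for Rela, -0.43 to 0.088 for Nfkbib and -0.53 to 0.82 for Tnfaip3, and all 5 overlapped between the genotypes. In M1 the 8 macrophage markers summed to 45215 to 46554 CPM in Prep+/- and 31074 to 36937 CPM in Prep-/-, the 5 stromal markers to 17.8 to 19.8 and 5.65 to 16.6 CPM, and the 7 granulocyte precursor markers, with overlap, to 22.5 to 39.1 and 17.4 to 24.3 CPM. Most of the macrophage sum was Lyz2, at 34403 to 36628 CPM in Prep+/- and 20392 to 26197 CPM in Prep-/-. Cd68 (855 to 1009 and 1096 to 1477 CPM) and Mertk (27.9 to 45.7 and 73.4 to 102 CPM) went the other way without overlap. The remaining macrophage markers overlapped between the genotypes. Other lists were higher in Prep-/- M1 without overlap. The 3 B cell markers in the table summed to 2.06 to 2.59 and 5.09 to 6.96 CPM, nearly all Cd79b, with Ms4a1 at 0 in every M1 library, and of 5 T cell markers the 2 in the table summed to 0.225 to 0.323 and 0.865 to 1.40 CPM, all of it Lck, with Cd3d at 0. The dendritic cell and erythroid sums overlapped. Their part in these values was not tested.

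**Figure D4:**
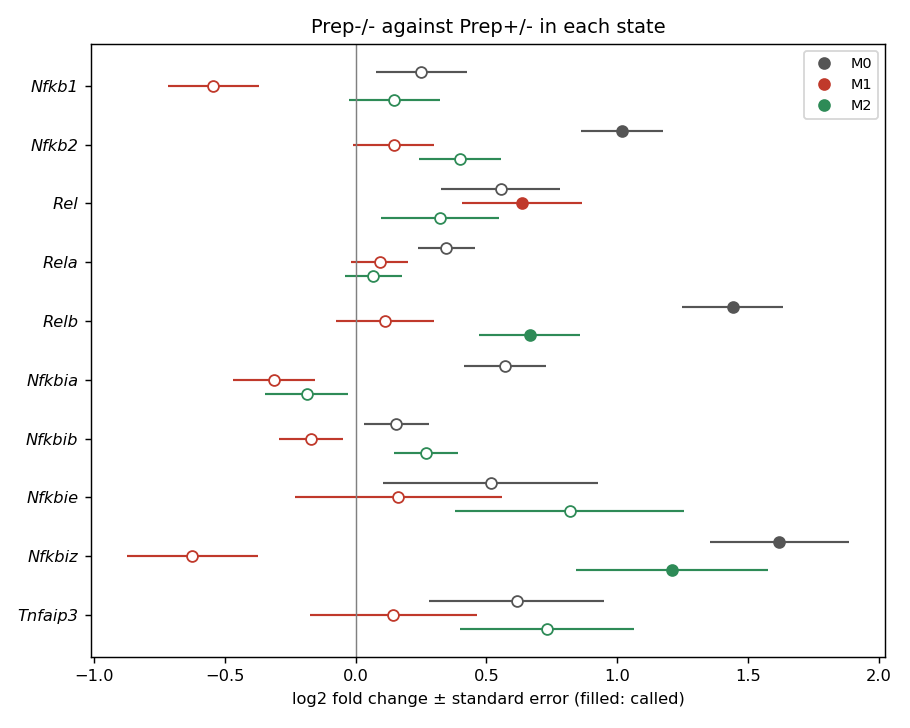
Log2 fold change of Prep-/- against Prep+/- with its standard error (x axis) for each member (y axis), in M0 (grey), M1 (red) and M2 (green), with filled points where the gene was called. Nfkb2, Relb and Nfkbiz lie furthest to the right in M0 and Nfkbiz and Nfkb1 furthest to the left in M1.

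With IL-4 and IL-13, Nfkbiz and Nfkbia fell in both genotypes, Relb and Nfkb2 fell in Prep-/-, and Rel rose in Prep+/-. The other changes were not called. In Prep+/-, 1 member was called higher and 2 lower of 10, beside 6.09% of all genes called higher, 6.77% called lower and 12.9% called in either direction. In Prep-/-, 0 were called higher and 4 lower, beside 14.7%, 15.5% and 30.2%. The medians of the members were -0.15 in Prep+/- and -0.60 in Prep-/-, and those of all genes -0.01 and -0.024.

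Nfkbiz gave 29.8, 24.9 and 14.2 normalized counts in Prep+/- M2 and 46.8, 77.2 and 36.5 in Prep-/- M2, below every M0 library of the same genotype. The log2 fold changes were -3.01 (SE 0.33, adjusted p = 5.60e-06) and -3.42 (SE 0.30, adjusted p = 1.74e-07) in edgeR. Nfkbia fell from 1168, 1594 and 1356 to 716, 700.4 and 1054 in Prep+/- (log2 fold change -0.74, SE 0.16, adjusted p = 0.00336) and from 2468, 1684 and 1971 to 715, 712 and 742 in Prep-/- (log2 fold change -1.497, SE 0.16, adjusted p = 1.79e-06). The M2 levels of both genotypes overlapped. The fall of Nfkbia was larger in Prep-/- by -0.76 on the log2 scale (SE 0.22, adjusted p = 0.0429). It was the 1 member of 10 called in the test of the difference of IL-4/IL-13 responses, beside 4.13% of all genes called lower, 4.53% called higher and 8.66% called in either direction. That call was lost in 15 of 24 alternatives, among them the fit to the 12 libraries compared (adjusted p = 0.0985) and the fit without Prep-/- M0 replicate 1 (-0.60, adjusted p = 0.107).

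The inhibitor Nfkbie had a lower mean in M2 than in M0 in both genotypes but was called in neither. In Prep+/- it gave 234, 332 and 262 normalized counts in M0 and 80.3, 112 and 181 in M2, without overlap (log2 fold change -1.15, SE 0.43, adjusted p = 0.0756 in edgeR, 95% interval -2.07 to -0.24). It was called in 8 of 24 alternatives, among them DESeq2 (-1.17, adjusted p = 0.0255) and the fit to only the libraries compared (-1.14, adjusted p = 0.00687). Leaving out Prep+/- M2 replicate 3, the highest of its group, also gave a call (-1.55, adjusted p = 0.0434). In Prep-/- it gave 672, 316 and 200.2 in M0 and 142, 121 and 394 in M2, with overlap (log2 fold change -0.85, SE 0.42, adjusted p = 0.111). Without Prep-/- M2 replicate 3 the change was -1.59 and was called (adjusted p = 0.00378), as it was without Prep-/- M0 replicate 3 (-1.18, adjusted p = 0.0252). Nfkbib was not called in Prep+/- (0.17, adjusted p = 0.372) or in Prep-/-, where its M2 libraries all lay above its M0 libraries (0.28, adjusted p = 0.0713).

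Among the subunits, Rel rose with IL-4 and IL-13 in Prep+/-, from 559, 587 and 624 to 922, 989.7 and 983 normalized counts (log2 fold change 0.71, SE 0.23, adjusted p = 0.0379 in edgeR), without overlap. Leaving out any 1 library of the 2 groups ended this call, with the highest adjusted p at 0.108, and so did leaving out Prep+/- M1 replicate 3 (adjusted p = 0.0526). In Prep-/- every M2 library (1212, 1338 and 1070.2) was also above every M0 library (1037, 1003 and 561), with an adjusted p of 0.0968. Relb fell in Prep-/- from 1821, 1064 and 1015 to 569, 511 and 478 (log2 fold change -1.32, SE 0.19, adjusted p = 3.91e-05) and Nfkb2 from 2499, 1613 and 1450.2 to 975, 1069 and 1092 (log2 fold change -0.83, SE 0.16, adjusted p = 4.68e-04). Without Prep-/- M0 replicate 1 the change of Nfkb2 was -0.55 and under the fold limit. In Prep+/- the values were -0.55 for Relb (adjusted p = 0.0597) and -0.21 for Nfkb2 (adjusted p = 0.403), and neither difference between the genotypes was called (adjusted p = 0.0807 and 0.0889). Single libraries decided these too, since Relb in Prep+/- was called without Prep+/- M0 replicate 3 (-0.69, adjusted p = 0.0316), and without Prep-/- M0 replicate 3 the difference between the genotypes was called for Relb (-0.91, adjusted p = 0.0355) and Nfkb2 (-0.75, adjusted p = 0.0234). For Relb it was also called without Prep-/- M0 replicate 2 (-0.89, adjusted p = 0.0466). Nfkb1 and Tnfaip3 were called in neither genotype, with log2 fold changes of 0.072 and 0.16 in Prep+/- and -0.032 and 0.27 in Prep-/-. Rela in Prep-/- passed the adjusted p only (-0.37, adjusted p = 0.0111), as 43.8% of all genes did at any fold change.

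In M2 the genotypes again differed in Relb and Nfkbiz, both higher in Prep-/-. These 2 of 10 members compare with 6.37% of all genes called higher, 9.82% called lower and 16.2% called in either direction. Relb was at 285, 324 and 373 normalized counts in Prep+/- and 569, 511 and 478 in Prep-/- (log2 fold change 0.67, SE 0.19, adjusted p = 0.0195 in edgeR), and Nfkbiz at 29.8, 24.9 and 14.2 and 46.8, 77.2 and 36.5 (log2 fold change 1.21, SE 0.37, adjusted p = 0.0237). Neither overlapped, and both stayed below every M1 library. The Relb call was lost without Prep+/- M2 replicate 1 (adjusted p = 0.0799), Prep+/- M2 replicate 2 (0.0663) or Prep-/- M2 replicate 1 (0.0757). The Nfkbiz call was lost without Prep+/- M2 replicate 2 (0.0555), Prep+/- M2 replicate 3 (0.0916) or Prep-/- M2 replicate 2 (0.127), and in the fit to only the M2 libraries (0.0681). Tnfaip3, at 309, 273 and 453 and 485, 405 and 826, was not called (log2 fold change 0.73, SE 0.33, adjusted p = 0.120), but in the paired fit of the M2 libraries, which blocks on the replicate number, it was called (0.70, adjusted p = 0.00751), as it was without Prep-/- M0 replicate 3 (0.73, adjusted p = 0.0444). Nfkb2, Rel and Nfkbib were higher in every Prep-/- M2 library without being called, with adjusted p = 0.0762, 0.320 and 0.124. Sirt2, which overlaps Nfkbib on the other strand, was also higher in every Prep-/- M2 library (log2 fold change 0.57, adjusted p = 0.0332 in edgeR, under the fold limit). Whether its reads enter the Nfkbib values was not tested. The 8 macrophage markers summed to 10382 to 12545 CPM in Prep+/- M2 and 14302 to 19953 CPM in Prep-/- M2, and the 7 granulocyte precursor markers to 10.7 to 12.7 and 14.1 to 22.5 CPM, neither with overlap, while the sums of the B cell, T cell, dendritic cell, stromal and erythroid markers overlapped. Most of the macrophage sum was Lyz2 (6501 to 8122 and 9545 to 14679 CPM). Csf1r and Cd68 were also higher in Prep-/- M2 without overlap, and the other macrophage markers overlapped. Their part in these differences was not tested.

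The rest of the pathway was counted in 7 lists. Among classical NF-kappaB targets, 21 of 25 rose and 1 fell with LPS in Prep+/-, and 20 rose and 2 fell in Prep-/-, beside 16.7% higher and 20.9% lower among all genes in Prep+/- and 20.9% and 21.0% in Prep-/-, with list medians of 4.31 and 3.70. Il1b, which encodes the inflammatory cytokine interleukin-1beta, changed by 9.46 in Prep+/- and 5.18 in Prep-/- on the log2 scale (adjusted p = 9.32e-10 and 6.30e-08 in edgeR), and Cd83, an activation marker, fell in both (-4.56 and -5.53). All 7 tested targets of IkappaBzeta rose in both genotypes, with medians of 8.14 and 6.25. Il6 stands in this list and in that of the classical targets. Its highest unstimulated library held 0.85 normalized counts for Prep+/- and 2.93 for Prep-/-. Csf3 was also barely detected without LPS in either genotype. For such genes the size of the fold change rests on very few reads. The medians of the genotypes were not tested against each other. Among IKK subunits and kinases 5 of 12 rose in each genotype and 0 or 1 fell, led by Ikbke and Tank. The receptor and TRAF list covers the non-canonical arm but also holds genes not confined to it, such as Tnfrsf1a. In that list 8 of 11 rose in each, including Traf1 (3.83 and 3.72), which binds TNF receptors, and Tnfrsf1b, TNF receptor 2 (2.90 and 1.57). Of the 15 ubiquitin and mRNA-decay regulators 7 rose in Prep+/- and 8 rose and 1 fell in Prep-/-, and of 14 TLR4 signalling genes 6 rose and 1 fell, and 3 rose and 1 fell.

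Between the genotypes, the upstream genes in M0 were mostly higher in Prep-/- where they were called. TLR4 signalling had 5 of 14 higher and 0 lower, among them Ly96, the co-receptor MD-2 (log2 fold change 1.22, SE 0.16, adjusted p = 1.52e-05 in edgeR), and Cd14 (0.85, adjusted p = 0.00156). The kinases had 4 of 12 higher and 0 lower, including Map3k14, the kinase NIK that starts the non-canonical arm (0.78, adjusted p = 0.00136). The receptor and TRAF list had 4 higher and 1 lower of 11, with Birc3, a ubiquitin ligase that keeps NIK low, at 1.95 (adjusted p = 3.16e-06). Of the other IkappaB family genes, Bcl3, a nuclear partner of p50 and p52, was higher (1.44, adjusted p = 4.19e-05), and Nfkbid was not called. The classical targets were mixed, with 6 higher and 4 lower of 25. Cxcl10, an interferon-induced chemokine (3.36, adjusted p = 2.48e-04), and Il1b (2.01, adjusted p = 0.00309) were higher, and the chemokine Ccl2 (-4.02, adjusted p = 7.86e-04) and Tnf (-1.78, adjusted p = 0.0115) were lower. IkappaBzeta targets had 2 of 7 higher, and ubiquitin and decay regulators 3 higher and 1 lower of 15. Among all genes 15.4% were called higher and 17.2% lower.

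After LPS, 10 of the 25 classical targets were lower and 4 higher in Prep-/-, with a median of -0.44, beside 10.2% lower and 12.3% higher among all genes. Il1b (log2 fold change -2.26, SE 0.37, adjusted p = 3.85e-04) and the neutrophil chemokine Cxcl2 (-2.05, adjusted p = 9.66e-04) were lower, and Nos2, the inducible nitric oxide synthase (2.79, adjusted p = 5.33e-04), and Cxcl10 (2.50, adjusted p = 0.00253) were higher. Of the 7 IkappaBzeta targets 3 were lower and 0 higher, and Csf3, the granulocyte growth factor G-CSF, differed most (log2 fold change -6.56, SE 0.47, adjusted p = 1.24e-06). Nfkbiz itself did not pass the test in this comparison. Upstream, 2 higher and 1 lower of 14 TLR4 genes were called, with Tlr4 at 0.78 and Cd14 at -0.93 (adjusted p = 2.37e-04 and 0.00176). The kinases had 1 higher of 12, the receptor and TRAF list 2 of 11, the ubiquitin and decay regulators 4 higher and 1 lower of 15, and Bcl3 and Nfkbid were not called.

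The LPS response in Prep-/- minus that in Prep+/- was called lower for 6 of the 14 TLR4 genes and higher for 1, Tlr4. Among the lower ones were Cd14 (-1.78, SE 0.27, adjusted p = 2.82e-04 in edgeR) and Ly96 (-1.37, adjusted p = 4.14e-04). A lower value can come from a smaller rise or a larger fall in Prep-/-. The difference was also called lower for Bcl3 (-1.17, adjusted p = 0.00809 in edgeR). The same held for 3 of the 25 classical targets, 2 of the 7 IkappaBzeta targets and 3 of the 11 receptor and TRAF genes. It was called higher for none in these lists. Among all genes this difference was called lower for 9.15% and higher for 12.0%, and the share of the classical targets is near that background. The kinases had 2 lower and 1 higher, and the ubiquitin and decay regulators 3 lower and 2 higher. Among the classical targets Il1b differed most (-4.27, adjusted p = 1.79e-04).

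With IL-4 and IL-13, 4 of 25 classical targets rose and 5 fell in Prep+/-, beside 6.09% and 6.77% of all genes, and 6 rose and 7 fell in Prep-/-, beside 14.7% and 15.5%. Cxcl2 was among those that fell in both (-2.84 and -2.04). Bcl3 fell in both genotypes (-1.10 and -1.42), as did Map3k14 (-0.94 and -1.21), while Cd40, a receptor of the non-canonical arm, rose in both (1.25 and 0.82). Of the TLR4 genes 2 rose in each genotype, and 3 fell in Prep+/- and 5 in Prep-/-. In M2 Bcl3 (1.12, adjusted p = 0.00127 in edgeR), 3 of 12 kinases, 2 of 14 TLR4 genes and 2 of 11 receptor and TRAF genes were higher in Prep-/- and none of these lists held a gene called lower, beside 6.37% higher and 9.82% lower among all genes. Birc3 (1.33) and Map3k8 (0.80) were higher, as in M0. Of the classical targets 2 were higher and 2 lower, and edgeR and DESeq2 each called 0 of 7 IkappaBzeta targets, with 1 at an unadjusted p under 0.05, and 0 of 15 ubiquitin and decay regulators, with 5 at an unadjusted p under 0.05.

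For each of the 4 members called in a genotype comparison, the genes of most like pattern over the 18 libraries were found by Pearson's r of log2 CPM among 9591 genes. Nfkb2 was followed most closely by Ikbke (r = 0.98), the kinase IKKepsilon, then Cp (0.98), which encodes ceruloplasmin, and Aoah (0.98), which encodes an enzyme that deacylates LPS. For Relb they were Ifitm2 (0.97), Mapkapk2 (0.97) and Arl5c (0.97), for Nfkbiz Cxcl16 (0.98), Znrf1 (0.98) and Lpcat2 (0.98), and for Rel Pcmtd1 (0.93), Osbpl9 (0.92) and Tax1bp3 (0.91). The 18 libraries share their 6 groups and their scaling, and the values are descriptions.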

How the data were processed

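Bulk RNA-seq of the 18 BMDM libraries was deposited as read counts. Per the methods and the labels, the authors made the counts from stranded, poly(A)-selected paired-end reads trimmed with Trimmomatic 0.36 and aligned to GRCm39 with HISAT2 2.2.1.0. Per the methods, the aligned reads were then assembled into transcripts with StringTie, which gave the count tables. The annotation release, strand setting and treatment of multimapping reads were not given in the sources used here. The deposited counts are whole numbers and were not normalized. 0 sample columns were left unused.

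Genes were filtered with filterByExpr on the 6 groups, scaled with TMM and tested with edgeR 4.0.16 (R 4.3.3) by the quasi-likelihood test with 1 coefficient per group over all 18 libraries. P-values were adjusted by Benjamini-Hochberg over the 12021 genes tested. Calls needed an adjusted p below 0.05 together with a change of more than 1.5-fold. Intervals are 95% intervals from the standard error and the moderated degrees of freedom. The precision is set by the depth of 19068237 to 22598279 counts per library and by 3 libraries a group, and no 2 replicates were alike enough to be 1 library. The fits were run on simulated counts with changes set in Prep-/- M1 only. These were scored in the genotype differences in M1 and M2, so the responses to stimulation and their differences were not covered.

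All 10 members were named in each comparison, with up to 3 called genes per list, direction and comparison of the largest change at a mean of at least 5 CPM and without overlap. The members and lists were chosen with earlier results of these data known. Replicate numbers paired the samples, with every correlation of deviations over 0.1, for the LPS response in Prep-/- (0.17 to 0.26) and the genotype difference in M2 (0.25 to 0.46), and in no other comparison. Alternatives were DESeq2 1.42.0, RLE size factors, no low-count filter, adjusted p alone, only the compared libraries, replicate blocks and leaving out each library.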

Additional observations from a re-analysis of the deposited data

Results flagged for a closer look

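The responses of 6 pairs of gene and stimulus differed between the genotypes by the test of the difference itself, with edgeR and Benjamini-Hochberg adjustment over all genes tested. For LPS, the change in Prep-/- minus that in Prep+/- was -2.24 on the log2 scale for Nfkbiz, -1.33 for Relb, -0.88 for Nfkbia, -0.87 for Nfkb2 and -0.79 for Nfkb1. For IL-4 and IL-13 it was -0.76 for Nfkbia, a call that was lost in 15 of 24 alternatives. The LPS call for Nfkb1 was lost without Prep-/- M0 replicate 1 and without Prep+/- M0 replicate 2. It was also lost with the replicate block in only the libraries compared.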

How the results depend on the processing

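Of 2160 alternative values of the members' log2 fold changes, 2060 kept their direction and their side of the threshold, 40 lost the call, 33 gained it and 27 turned direction, and every value that turned was one that had not been called. With adjusted p alone, 5 members were called in the genotype difference in M0 and 2 in M1. The count in M1 was also 2 with DESeq2, with RLE size factors, with only the libraries compared, and with the replicate block in those libraries, since Nfkbiz was then called. With only the libraries compared, 1 member was called in the genotype difference in M2 and 0 in the difference of IL-4/IL-13 responses (edgeR, where DESeq2 called 1), which was also 0 with either replicate block. Leaving out 1 library at a time, the counts ranged from 7 to 8 (LPS in Prep+/-), 6 to 6 (LPS in Prep-/-), 2 to 4 (IL-4/IL-13 in Prep+/-), 3 to 5 (IL-4/IL-13 in Prep-/-), 3 to 5 (genotype in M0), 0 to 2 (M1), 0 to 3 (M2), 4 to 5 (difference of LPS responses) and 0 to 3 (difference of IL-4/IL-13 responses). The values that turned did so between these bounds when 1 library was left out. For the LPS response in Prep-/- they were Rela (-0.23 to 0.0082) and Relb (-0.11 to 0.39), for IL-4/IL-13 in Prep+/- Tnfaip3 (-0.11 to 0.30), and for IL-4/IL-13 in Prep-/- Nfkb1 (-0.28 to 0.10) and Tnfaip3 (-0.091 to 0.79). For the genotypes they were Nfkbie in M0 (-0.095 to 0.82), Rela (-0.027 to 0.14) and Tnfaip3 (-0.0079 to 0.24) in M1 and Nfkbia in M2 (-0.32 to 0.035). For the difference of LPS responses they were Rel (-0.23 to 0.25), Nfkbie (-0.67 to 0.26) and Tnfaip3 (-0.79 to 0.039), and for that of IL-4/IL-13 responses Nfkb1 (-0.33 to 0.042), Nfkbie (-0.42 to 0.91), Nfkbiz (-0.76 to 0.026) and Tnfaip3 (-0.23 to 0.63). Nfkb1 also turned for IL-4/IL-13 in Prep-/- with the replicate block (0.0096). Where numbers pair the samples, the block changed no call but that of Tnfaip3 in M2. In the other comparisons it gave 7 and 3 calls for LPS and IL-4/IL-13 in Prep+/-, 4 for IL-4/IL-13 in Prep-/-, 3 for the genotypes in M0, 1 in M1 and 5 for the difference of LPS responses over all 18 libraries. With the block in only the libraries compared these counts were 7, 4, 3, 3, 2 and 4, where Nfkbie was called for IL-4/IL-13 in Prep+/- (adjusted p = 5.14e-05), and Nfkb2 for IL-4/IL-13 in Prep-/- (adjusted p = 0.0547) and Nfkb1 in the difference of LPS responses (adjusted p = 0.0540) were not. In none of these comparisons did every sample correlate best with its own number. Of 1512 alternative list counts 1403 stayed within 1.5 times the count given and 109 moved. The causes of these changes were not tested.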
